A study of Mus musculus with 2 samples.

Results

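The genes described here move haem and its porphyrin precursors across membranes, open the haem ring, reduce the pigment that results, or bind haem in the cytosol. They are Flvcr1, Flvcr2, Abcg2, Abcb6, Slc48a1, Hmox1, Hmox2, Blvra, Blvrb and Hebp1. They were chosen by name and matched through the GENCODE mouse annotation of mm10 by gene identifier without its version. All 10 were matched, of 43346 Ensembl genes in each table, and all 10 are protein-coding genes, of 21461 on the nuclear chromosomes. The rule uses no measured value.

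Total RNA was sequenced from primary erythroid progenitor cells labelled CFU-Ery, the dividing precursors that give rise to red blood cells. The cells came from adult male C57BL/6J mice aged 5 to 6 weeks, without any labelled treatment or allele, by an isolation of progenitors from bone marrow. The single group holds 2 libraries, biological replicates 1 and 2, each made with spike-in transcripts from 1 ng of RNA at a fragment range of 150 to 400 nt. Both libraries share 1 donor record and have separate biosamples, so the spread between them may be technical, and no comparison between conditions is possible.

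Haem is made in the mitochondria of developing red cells, and free haem is toxic, so its export, import and breakdown set how much of it the cell carries beside that bound to globin. Haem oxygenase opens the haem ring and releases iron, carbon monoxide and biliverdin, and biliverdin reductase turns biliverdin into bilirubin. In the bone marrow and spleen this breakdown is best known from macrophages, which take up old or damaged red cells, release the haem from the phagolysosome and recycle its iron.

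The tables held 143491647 expected counts in replicate 1 and 110634458 in replicate 2, of which 90.3% and 88.3% were mitochondrial. Nuclear protein-coding genes held 4717790 and 4093202 counts, and the 10 genes held 6611 and 5392. TPM (transcripts per 1000000) is scaled per length over all of this RNA, so the large mitochondrial share lowers the TPM of nuclear genes. Rescaled TPM is the same value after nuclear protein-coding genes alone were set to sum to 1000000, which multiplied TPM by 43.1 in replicate 1 and by 37.0 in replicate 2. The erythroid markers Gata1, Klf1, Epor, Tfrc, Slc4a1, Alas2 and Hbb-bs each reached 1 TPM in both libraries, from 5.81 ± 0.184 TPM for Gata1 to 2455 ± 237 TPM for Hbb-bs (SD, n = 2). Markers of other cells were also present. All 9 granulocyte markers reached 1 TPM in both libraries, with summed TPM of 546 in replicate 1 and 741 in replicate 2. The same was true of 8 of 14 macrophage markers (19.4 and 23.6 summed TPM), 3 of 5 B cell markers (15.5 and 17.7) and 0 of 5 megakaryocyte markers (2.08 and 2.64). In bulk RNA, fewer cells of a type and less RNA per cell cannot be told apart.

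Biliverdin reductase B and the exporter Abcg2 were the most abundant transcripts of these genes, and Flvcr2 gave no count. Of the 10 genes, 6 reached 1 TPM in both libraries, against 12.6% of nuclear protein-coding genes (2701 of 21461). On the rescaled values 9 reached 1, against 44.6% (9572 of 21461). The median level of the 10 genes was 2.23 TPM in replicate 1 and 3.00 TPM in replicate 2, while the median nuclear protein-coding gene stood at 0.0100 and 0.0200 TPM. In rescaled TPM these medians were 104 ± 10.7 and 0.586 ± 0.218 (SD, n = 2).

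By mean TPM the genes stood in the order Blvrb, Abcg2, Hebp1, Abcb6, Slc48a1, Hmox1, Blvra, Hmox2, Flvcr1 and Flvcr2. Neighbours were called apart where both libraries gave the same order and the 95% Poisson counting intervals of their TPM did not overlap in either library, which held for 8 of the 9 neighbouring pairs. Hebp1 and Abcb6 were not apart, since Hebp1 was the higher in replicate 1 and Abcb6 in replicate 2. Counting intervals cover counting error only. An exact sign-flip test on 2 libraries cannot go below p = 0.5, so no p-values are given.

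**Figure D1:**
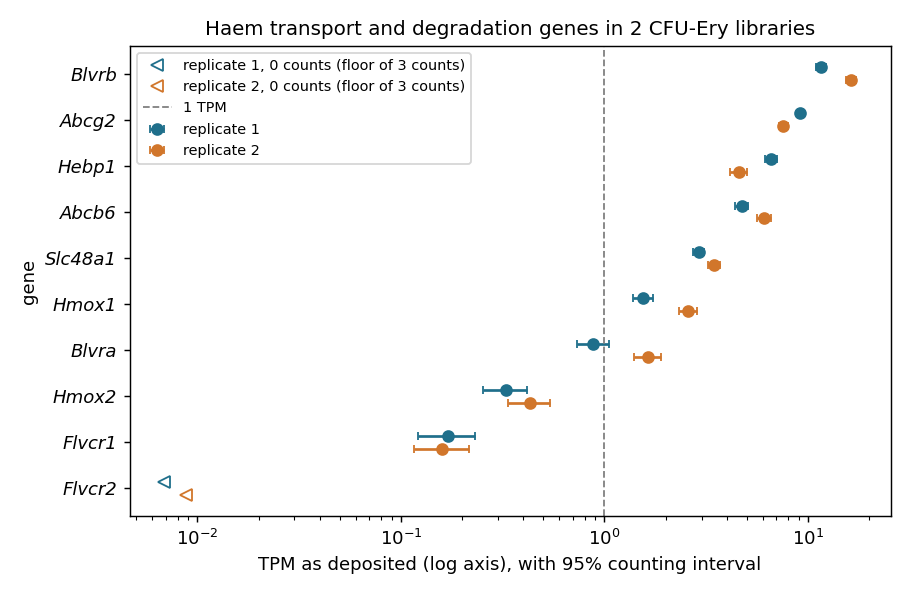
TPM of each gene (log axis) in replicate 1 and replicate 2, with exact 95% Poisson counting intervals as bars and a dashed line at 1 TPM. Flvcr2 had 0 counts, and its open triangles mark the floor of 3 counts. The levels run from Flvcr1 at 0.165 TPM to Blvrb at 13.9 TPM on average.

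The exporters were unequal: Abcg2 ranked high among nuclear protein-coding genes and Flvcr1 was much lower. Abcg2 (ENSMUSG00000029802.9, chr6:58584523-58695676, plus strand) is an ATP-driven pump of the cell membrane, known for drug resistance, that also carries porphyrins and haem out of cells. It had 2233 counts in replicate 1 and 1468 in replicate 2, or 9.18 TPM (95% counting interval 8.80 to 9.57) and 7.58 TPM (7.20 to 7.98). The mean was 8.38 ± 1.13 TPM (SD, n = 2), above 98.5% and 98.0% of nuclear protein-coding genes. Replicate 1 was the higher, and the counting intervals did not overlap.

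Flvcr1 (ENSMUSG00000066595.5, chr1:191005847-191026158, minus strand) was first known as the receptor of a feline leukaemia virus and was described as a haem exporter needed by developing red cells, and later as a choline transporter. It had 41 counts in replicate 1 and 44 in replicate 2, or 0.170 TPM (0.122 to 0.231) and 0.160 TPM (0.116 to 0.215). The mean was 0.165 ± 0.00707 TPM (SD, n = 2), or 6.63 ± 1.00 rescaled TPM. The libraries overlapped within counting error, and Flvcr1 stood above 65.3% and 63.3% of nuclear protein-coding genes.

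RefSeq gives Abcg2 more than 1 transcription start, and the deposited transcript counts fell mainly on the most downstream of these. The 250 bases before each of 3 starts are shown because the counts separated them; they come from RefSeq on GRCm38.p6, plus strand, 5′ to 3′. The windows are chr6:58584283-58584532 before start 1, chr6:58596422-58596671 before start 2 and chr6:58640296-58640545 before start 3. Capitals mark matches, on either strand, to a GATA motif (GATA with an A or a T before it and an A or a G after it) or to CCNCNCCC, a CACCC-box type of motif, with overlapping matches counted separately.
Abcg2 start 1: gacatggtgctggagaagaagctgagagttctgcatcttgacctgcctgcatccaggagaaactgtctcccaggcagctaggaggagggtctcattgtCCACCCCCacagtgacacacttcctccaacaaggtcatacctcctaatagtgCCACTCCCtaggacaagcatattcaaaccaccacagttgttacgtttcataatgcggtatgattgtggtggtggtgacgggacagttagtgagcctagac
Abcg2 start 2: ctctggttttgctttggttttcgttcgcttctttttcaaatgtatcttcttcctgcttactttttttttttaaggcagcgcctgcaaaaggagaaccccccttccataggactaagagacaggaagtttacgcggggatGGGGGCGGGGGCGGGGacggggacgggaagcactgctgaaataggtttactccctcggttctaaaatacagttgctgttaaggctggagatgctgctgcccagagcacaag
Abcg2 start 3: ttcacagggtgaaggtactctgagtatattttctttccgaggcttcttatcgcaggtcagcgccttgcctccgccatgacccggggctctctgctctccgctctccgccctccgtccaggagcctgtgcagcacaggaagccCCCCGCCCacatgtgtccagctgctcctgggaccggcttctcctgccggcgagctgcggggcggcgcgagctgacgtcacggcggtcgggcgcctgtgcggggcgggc

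Transcripts that begin within 100 bases of start 3 (Abcg2-202, Abcg2-203, Abcg2-206 and Abcg2-207) held 2042 counts in replicate 1 and 1344 in replicate 2. That was 91.5 ± 0.0972% of the gene's expected count (SD, n = 2), and transcripts at start 1 and at start 2 had 0 counts in both libraries. Start 3 lies 56013 bases downstream of start 1 and 43874 bases downstream of start 2. These transcripts share most exons with the others of the gene: 135 of their exon bases are in no transcript of another start, and the assignment rests on reads that reach such bases or a junction of these transcripts. The start positions are those of GENCODE M21, while counting used M4, in which Abcg2-201, the transcript of start 2, was 2492 nt long against 5717 nt in M21. None of the 3 windows held a GATA motif, and CCNCNCCC had 2 matches before start 1, 4 before start 2 and 1 before start 3. The GC content was 51.2%, 50.0% and 67.6%.

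Abcg2 counts were also divided between coding and non-coding models. The coding Abcg2-202 (2178 nt) held 1088.41 counts in replicate 1 and 716.43 in replicate 2, and the nonsense-mediated decay model Abcg2-206 (2556 nt) held 895.72 and 599.14. By type, coding transcripts took 48.9% and 48.8% of the expected count, decay models 40.1% and 41.3%, and retained introns 10.9% and 9.86%. The split between types differed by under 2 percentage points between the libraries. For Flvcr1 the split was unlike in each library. Replicate 1 put 16 counts on the coding Flvcr1-202 and 25 on the decay model Flvcr1-203, whereas replicate 2 put 13.14 and 30.86 counts on the retained-intron models Flvcr1-205 and Flvcr1-206. The longest coding transcript, Flvcr1-201 (4040 nt), was listed at 0 in both.

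**Figure D2:**
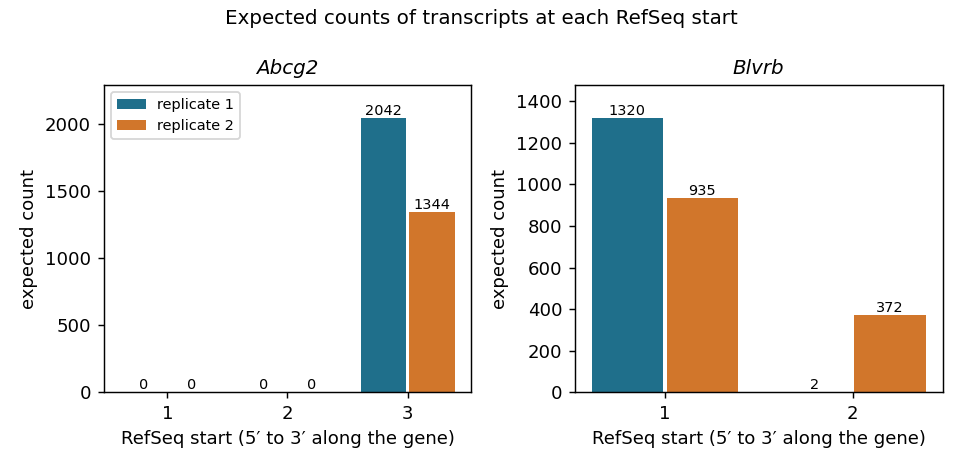
Expected counts of transcripts within 100 bases of each RefSeq start of Abcg2 (left) and Blvrb (right), numbered 5′ to 3′ along the gene, in replicates 1 and 2. Abcg2 counts stand at start 3 (2042 and 1344), and Blvrb start 2 holds 2.33 counts in replicate 1 and 372 in replicate 2.

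Of the transporters that bring haem to the cytosol, Slc48a1 was well detected and Flvcr2 was not. Slc48a1 (ENSMUSG00000081534.2, chr15:97778520-97792692, plus strand), also called HRG1, moves haem out of the lysosome into the cytosol and is best known from macrophages that digest red cells. It had 919 counts in replicate 1 and 853 in replicate 2, or 2.90 TPM (2.72 to 3.09) and 3.44 TPM (3.21 to 3.68). The mean was 3.17 ± 0.382 TPM, or 126 ± 1.54 rescaled TPM (SD, n = 2). For Slc48a1 the libraries thus lay closer together, relative to the mean, once the total held nuclear protein-coding genes alone. In the same sense they lay further apart for Abcg2, Flvcr1 and Hebp1, and closer for the other listed genes with counts. All Slc48a1 counts were on the coding Slc48a1-201.

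Flvcr2 (ENSMUSG00000034258.3, chr12:85746539-85813585, plus strand) is the nearest relative of Flvcr1 and was described as a haem importer and as a choline transporter of the blood-brain barrier. It had 0 counts in both libraries. The floor of 3 counts per library lies at 0.00688 TPM in replicate 1 and 0.00880 TPM in replicate 2. The exact 95% Poisson intervals reach further, to 0.00846 and 0.0108 TPM. The bounds that follow use the floor and would be smaller at these limits. At its deposited TPM, Flvcr1 was at least 24.7-fold higher in replicate 1 and at least 18.2-fold higher in replicate 2. At the lower limit of the Flvcr1 counting interval these bounds were 17.7-fold and 13.2-fold, and with Flvcr1 counts on its longest coding transcript 11.5-fold and 12.4-fold. Slc48a1 TPM exceeded Flvcr1 TPM by 4.09 on the log2 scale (95% conditional binomial interval 3.64 to 4.58) in replicate 1 and by 4.43 (3.99 to 4.90) in replicate 2. The mean of 4.26 ± 0.24 (SD, n = 2) is a 19.2-fold higher level, larger than the spread between the libraries.

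Abcb6 carries porphyrins and is found at the outer mitochondrial membrane, in lysosomes and at the cell surface, where it bears a red cell blood group. The gene (ENSMUSG00000026198.11, chr1:75171717-75180392, minus strand) had 796.38 counts in replicate 1 and 664.97 in replicate 2, or 4.72 TPM (4.40 to 5.06) and 6.08 TPM (5.63 to 6.56). The mean was 5.40 ± 0.962 TPM, or 214 ± 15.1 rescaled TPM (SD, n = 2). Abcb6 over Abcg2 was −0.96 on the log2 TPM scale (−1.08 to −0.84) in replicate 1 and −0.32 (−0.45 to −0.18) in replicate 2, with a mean of −0.64 ± 0.45 (SD, n = 2). Abcg2 was thus the higher in both libraries, by amounts that differed more than counting error.

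The TPM of Abcb6 rests largely on 1 short transcript. Abcb6-206, a coding model of 416 nt, held 112.41 counts in replicate 1 and 124.42 in replicate 2, which was 14.1% and 18.7% of the gene's expected count but 64.4% and 71.6% of its TPM. The full coding transcript Abcb6-201 (2966 nt) held 359.65 and 303.00 counts, 45.2% and 45.6% of the gene's count. Retained-intron models took 40.7% and 35.7% of the counts. With all counts set on the length of Abcb6-201, the gene stood at 2.13 TPM in replicate 1 and 2.28 TPM in replicate 2, 0.408 times its deposited mean and below Slc48a1 in both libraries. This calculation was added after the values were seen.

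Reads at Abcb6 were also shared with its neighbours. Its counts were fractional, and those of Abcb6, Gm29253 and Atg9a together came to 1501 in replicate 1 and 1177 in replicate 2, whole within 0.05 counts. Gm29253, a non-coding transcript on the same strand, shares 2932 exon bases with Abcb6 and held 327.33 and 189.65 counts. The posterior SD of the Abcb6 count was 6.84 in replicate 1 and 6.61 in replicate 2.

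Among the haem oxygenases, the inducible Hmox1 stood above the constitutive Hmox2. Hmox1 (ENSMUSG00000005413.7, chr8:75093621-75100589, plus strand) is induced by haem and oxidative stress when the repressor BACH1 leaves its enhancers. It had 301 counts in replicate 1 and 372 in replicate 2, or 1.55 TPM (1.38 to 1.74) and 2.57 TPM (2.32 to 2.84). The mean was 2.06 ± 0.721 TPM, or 81.0 ± 20.0 rescaled TPM (SD, n = 2), with replicate 2 the higher beyond counting error. Coding Hmox1-201 took 100% and 98.2% of its counts.

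Hmox2 (ENSMUSG00000004070.11, chr16:4726361-4766742, plus strand), known for its steady expression in brain and testis, had 66.42 counts in replicate 1 and 69.98 in replicate 2. These gave 0.330 TPM (0.254 to 0.417) and 0.430 TPM (0.335 to 0.543), with a mean of 0.380 ± 0.0707 TPM (SD, n = 2) and overlapping intervals. Hmox2 over Hmox1 was −2.23 on the log2 TPM scale (−2.65 to −1.85) in replicate 1 and −2.58 (−2.97 to −2.21) in replicate 2. The mean of −2.41 ± 0.25 (SD, n = 2) puts Hmox1 5.30-fold higher, a difference larger than the spread between the libraries. Hmox2 shares 892 exon bases with Cdip1 on the opposite strand, and the use of strand in counting is not given in the sources used here. The counts of both genes were fractional and summed to 99 in replicate 1 and 117 in replicate 2, whole within 0.05 counts.

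Hmox1 and Slc48a1 are also known from macrophages, so the macrophage markers are given beside them. Of 14 markers none was at 0 in both libraries, and Marco had 0 counts in replicate 1 and 6 in replicate 2. Slc40a1, the iron exporter, was the highest at 4.61 ± 0.212 TPM (SD, n = 2), and erythroid cells express it as well. The complement gene C1qb stood at 4.17 ± 0.658 TPM. Vcam1 had 2.90 TPM in replicate 1 and 4.11 in replicate 2, the lysosomal Cd68 had 1.54 and 1.84, Adgre1 had 0.170 and 0.470, and the haemoglobin scavenger receptor Cd163 had 0.160 and 0.190. Hmox1 over Cd68 was 0.25 ± 0.33 on the log2 TPM scale, and Slc48a1 over Vcam1 was −0.13 ± 0.18 (SD, n = 2), both within the spread between the libraries. Hmox1 over Vcam1 was −0.79 ± 0.16, or 1.73-fold lower, beyond that spread. The part of macrophage RNA in the levels of Hmox1 and Slc48a1 was not tested.

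The biliverdin reductases were unequal by about an order of magnitude. Blvrb (ENSMUSG00000040466.11, chr7:27447978-27466144, plus strand) reduces flavins and the beta isomer of biliverdin and is an abundant protein of red cells. It had 1322 counts in replicate 1 and 1307 in replicate 2, or 11.6 TPM (10.9 to 12.2) and 16.3 TPM (15.4 to 17.2). The mean was 13.9 ± 3.37 TPM, or 551 ± 74.4 rescaled TPM (SD, n = 2), above 98.8% and 99.1% of nuclear protein-coding genes. Replicate 2 was the higher in TPM and the lower in counts. On the length of Blvrb-201 alone the levels were 11.2 and 14.2 TPM.

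Blvra (ENSMUSG00000001999.11, chr2:127070665-127097084, plus strand) makes bilirubin from the alpha isomer of biliverdin, the product of haem oxygenase. It had 123 counts in replicate 1 and 177 in replicate 2, or 0.880 TPM (0.731 to 1.05) and 1.63 TPM (1.40 to 1.89), a mean of 1.25 ± 0.530 TPM (SD, n = 2). It reached 1 TPM in replicate 2 alone. Blvrb over Blvra was 3.72 on the log2 TPM scale (3.45 to 3.99) in replicate 1 and 3.32 (3.10 to 3.56) in replicate 2. The mean of 3.52 ± 0.28 (SD, n = 2) is an 11.5-fold higher level of Blvrb, larger than the spread between the libraries. Blvra counts lay on the coding Blvra-201 (87.3% and 86.7%) and on a retained-intron model (12.7% and 13.3%).

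Blvrb is listed with a pair of starts in RefSeq, 4440 bases apart, and the libraries differed in how its counts were divided between them. The 250 bases before each are shown for this reason, from RefSeq on GRCm38.p6, plus strand, 5′ to 3′, with capitals for the same motifs as above. They are chr7:27447728-27447977 before start 1 and chr7:27452168-27452417 before start 2.
Blvrb start 1: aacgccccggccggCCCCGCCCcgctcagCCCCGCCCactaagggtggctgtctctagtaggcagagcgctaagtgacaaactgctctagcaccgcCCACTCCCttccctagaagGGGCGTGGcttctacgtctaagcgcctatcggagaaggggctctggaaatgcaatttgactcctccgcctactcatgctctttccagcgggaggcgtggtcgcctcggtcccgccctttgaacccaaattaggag
Blvrb start 2: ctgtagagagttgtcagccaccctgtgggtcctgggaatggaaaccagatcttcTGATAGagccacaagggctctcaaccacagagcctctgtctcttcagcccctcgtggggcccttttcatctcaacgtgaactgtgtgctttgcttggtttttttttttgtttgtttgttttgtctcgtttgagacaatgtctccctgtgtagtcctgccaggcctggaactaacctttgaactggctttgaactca

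Transcripts at start 1 (Blvrb-201, Blvrb-203 and Blvrb-204) held 99.8% of the counts in replicate 1 and 71.5% in replicate 2. Blvrb-202, at start 2, held 2.33 counts in replicate 1 and 372.04 in replicate 2. Its isoform percent, the share of the gene's TPM, was 0.240% and 34.3% by maximum likelihood and 6.33% and 33.5% as the posterior mean. The posterior mean count was 63.1 with a posterior SD of 47.5 in replicate 1 and 365 with a posterior SD of 64.6 in replicate 2. Of the 782 exon bases of Blvrb-202, 133 are in no transcript of start 1, and a read that reaches none of these bases or their junctions can belong to either start. The main transcript Blvrb-201 held 88.9% and 54.9% of the gene's TPM, a mean of 71.9 ± 24.0% (SD, n = 2). The window before start 1 held 0 GATA and 4 CCNCNCCC matches at a GC content of 62.0%, and the window before start 2 held 1 and 0 at 48.8%.

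RefSeq windows were found for 8 of the 10 genes, 13 windows in all. A GATA motif was present in 2 of the 13 (Hmox2 start 1 and Blvrb start 2), against 26.5% of all 32851 windows of the same length. CCNCNCCC was present in 9 of the 13, against 45.9%. The windows with this match had a GC content of 50.0% to 68.0%, and the median over all windows was 52.4%. Windows of like GC content were not compared, and the windows before Hmox2 starts 2 and 3 overlap. A match describes letters in the window and is not a binding site.

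Hebp1 encodes a small cytosolic protein that binds haem and other porphyrins, and of the 10 genes it stood furthest above the other library in replicate 1. The gene (ENSMUSG00000042770.7, chr6:135137522-135198022, minus strand) had 809 counts in replicate 1 and 436 in replicate 2, or 6.61 TPM (6.16 to 7.08) and 4.58 TPM (4.16 to 5.03). The mean was 5.60 ± 1.44 TPM, or 227 ± 81.8 rescaled TPM (SD, n = 2), and the intervals did not overlap. It has 1 listed transcript, Hebp1-201. It shares 46 exon bases with Fam234b on the opposite strand, which had 1087 and 1135 counts.

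By role, the biliverdin reductases held the largest share of the summed TPM of the 10 genes, at 37.4 ± 6.45% (SD, n = 2). The exporters Flvcr1 and Abcg2 held 21.4 ± 4.65%, Hebp1 14.1 ± 4.76% and Abcb6 13.3 ± 1.24%. The haem importers held 7.85 ± 0.274%, all of it Slc48a1, and the haem oxygenases 5.99 ± 1.45%. The reductases were first and the oxygenases last in both libraries, but on other scales the order of the mean shares changed. On expected counts, without length, the exporters came first at a mean of 31.2% against 24.7% for the reductases. They led in both libraries, but only narrowly in replicate 2. On the longest coding transcript's length Abcb6 came last by mean share, at 6.47%, below the oxygenases at 6.92%. The libraries differed here: the oxygenases were still last in replicate 1, and Abcb6 was last in replicate 2.

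Over the 10 genes, 45 transcripts were listed and 20 had counts in both libraries. Slc48a1 and Blvrb had all their counts on coding models, though a decay model is also listed for Slc48a1 and a processed transcript for Blvrb. Hmox2 and Hebp1 list coding models only, so the annotation fixed this outcome for them. Abcg2, Abcb6, Blvra and Flvcr1 had counts on retained-intron or decay models, and Hmox1 had 1.81% on a retained-intron model in replicate 2. Total RNA holds unspliced transcripts as well, and their part in these counts was not tested.

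**Figure D3:**
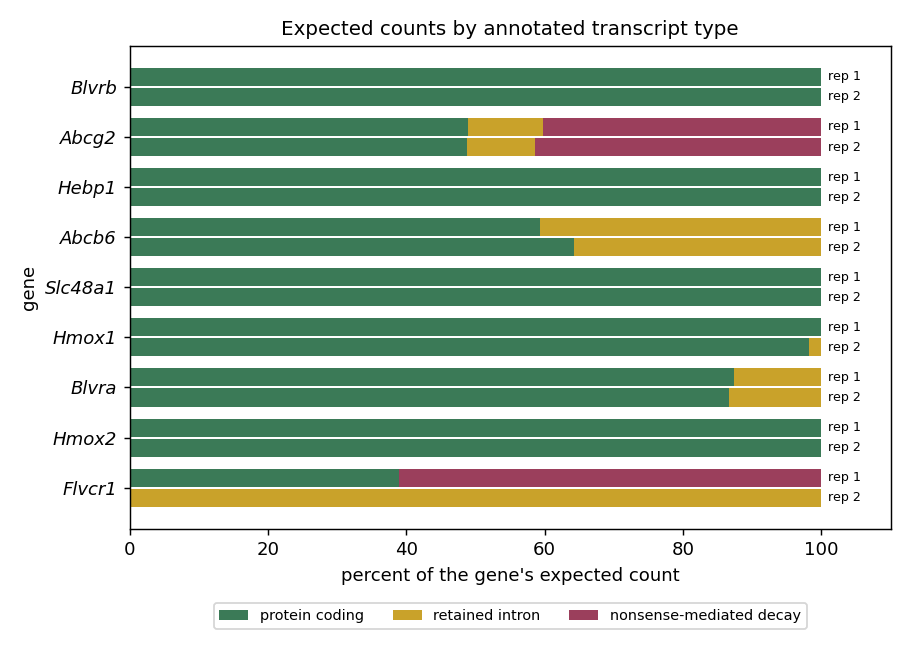
Percent of each gene's expected count on coding, retained-intron and nonsense-mediated decay models, with an upper bar for replicate 1 and a lower bar for replicate 2. Flvcr2 has no counts and is not drawn. Abcg2 has 48.9% and 48.8% on coding models, and Flvcr1, with 41 and 44 counts, has 39.0% and 0%.

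None of the genes differed over 2-fold between the libraries on this scale or under edgeR's TMM and DESeq2 scaling. The difference is log2(TPM + 1) in replicate 1 minus replicate 2, centred on the median of genes whose expected count averaged 20 or more, and it understates low genes. Of 9878 such genes 62 were over 2-fold apart (0.628%), and of the 9 haem genes among them 0 were. Hebp1 was higher in replicate 1 by 0.49, and Hmox1 and Blvra (−0.44 each) and Blvrb (−0.42) were higher in replicate 2. The median absolute difference was 0.29 over the 9 genes and 0.14 over all genes, but this order depends on the scale. It was 0.38 against 0.34 with a pseudocount of 0.1. TMM, DESeq2 and ERCC scaling were applied to rounded expected counts with 1 added, not to TPM, so the measure changed along with the scaling. Under TMM the medians were 0.31 against 0.39, and 18.2% of genes and 0 of the 9 were over 2-fold apart. The absolute difference of Hebp1 exceeded that of 93.3% of genes as first given and of 69.9% under TMM, and that of Blvrb 89.6% and 28.6%. On the centred log2(TPM + 1) scale, 3 of the 9 were higher in replicate 1 and 6 in replicate 2. Centring on the median places about as many of all genes above it as below.

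On plain TPM, Blvra was 1.85-fold apart between the libraries, Hmox1 1.66-fold, Hebp1 1.44-fold and Blvrb 1.41-fold. Flvcr1, Slc48a1, Abcg2, Abcb6 and Hmox2 were between 1.06-fold and 1.30-fold apart. The Flvcr1 value depends on the transcripts that its counts were put on, which differed between the libraries. On the length of its longest coding transcript, Flvcr1 stood at 0.0794 TPM in replicate 1 and 0.109 TPM in replicate 2, further apart. On expected counts under the scaling factors of edgeR's TMM and of DESeq2, Flvcr1 stood at −0.31, against 0.06 on log2(TPM + 1). Abcb6 stood at 0.05 against −0.26, and the other haem genes tested kept their direction. Between these values the measure changed from TPM to counts as well as the scaling. Scaled to ERCC spike-ins, which shifted the median of all genes by −0.62, Hmox1 (−1.14) and Blvra (−1.35) passed 2-fold, as did 28.8% of genes. On this scale Hebp1 (0.06) was the only haem gene tested above 0, and Abcg2 stood at −0.23. Taking off the shift of the median removes the ERCC factor, so the values then nearly repeat those under TMM and add no separate evidence. They were −0.52 for Hmox1, −0.73 for Blvra, 0.39 for Abcg2, 0.67 for Hebp1, −0.30 for Flvcr1 and 0.04 for Abcb6.

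**Figure D4:**
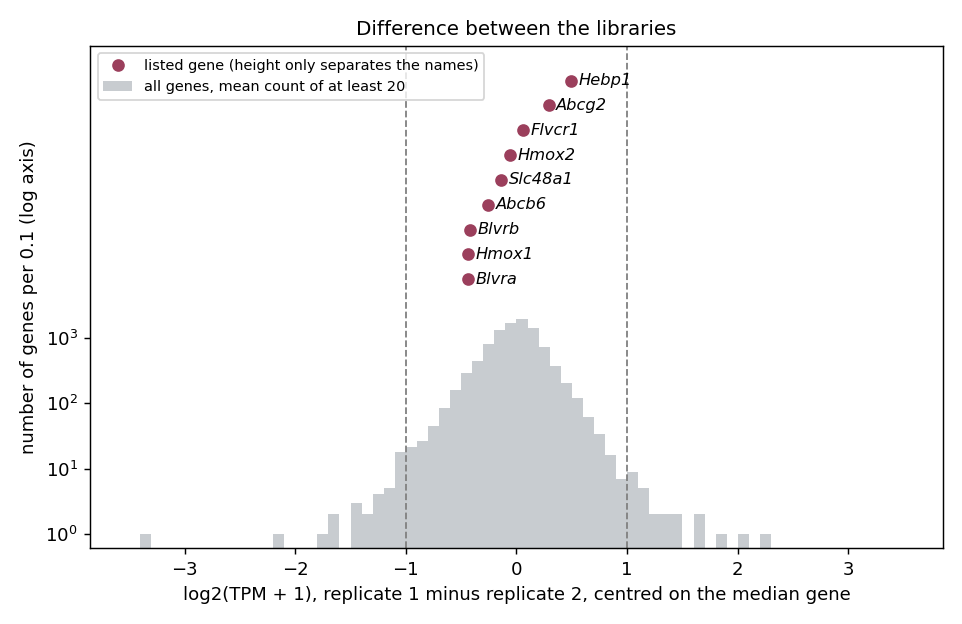
Centred difference in log2(TPM + 1), replicate 1 minus replicate 2, for 9878 genes as a grey histogram (log axis) and for 9 haem genes as points whose height only separates the names. Dashed lines mark 2-fold. The points run from −0.44 for Hmox1 and Blvra to 0.49 for Hebp1, all inside the lines.

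The levels can be set beside the rest of haem metabolism. Of 18 haem synthesis genes 15 reached 1 TPM in both libraries, and their median was 12.2 ± 1.29 TPM (SD, n = 2). The erythroid first enzyme Alas2 was the highest at 69.9 ± 11.2 TPM, and Cpox, a later enzyme of the pathway, stood at 26.7 ± 1.87 TPM. Abcb8 was lowest, with 0 and 0.180 TPM. Blvrb over Alas2 was −2.34 ± 0.12 on the log2 TPM scale and Hmox1 over Alas2 −5.12 ± 0.28 (SD, n = 2), or 5.05-fold and 34.8-fold lower. These gaps were larger than the spread between the libraries. Abcg2 over the erythroid factor Gata1 was 0.52 ± 0.15 and Hebp1 over Gata1 −0.08 ± 0.33 on the same scale, the second within the spread.

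Of 9 other haem-handling genes 2 reached 1 TPM in both libraries. These were Hp, the haemoglobin carrier of plasma, at 2.00 ± 0.438 TPM and Pgrmc2, a haem chaperone, at 1.27 ± 0.346 TPM (SD, n = 2). Abcc5 was next at 0.795 ± 0.247 TPM, and Hpx, Hebp2 and Slc46a1 had 0 counts in both. In the family of Flvcr1 and Flvcr2, Dirc2 stood at 0.190 ± 0.113 TPM and Mfsd7a had 0 counts in both. Eif2ak1, the kinase that slows translation when haem is short, stood at 6.62 ± 0.976 TPM.

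Of 14 genes of BACH1 and NRF2 control, the pathway through which haem and oxidants act on Hmox1, 6 reached 1 TPM in both libraries. The ferritin genes Fth1 (69.0 ± 13.0 TPM) and Ftl1 (58.5 ± 9.97 TPM) led, followed by Gclm (7.49 ± 1.43 TPM; SD, n = 2), and Maff was the lowest with 0 and 2 counts. Named outside the rule and with their values known, Bach1 itself stood at 0.540 TPM in each library and the activator Nfe2l2 at 2.34 ± 0.0283 TPM. The target Nqo1 of Nfe2l2 stood at 1.26 ± 0.170 TPM. Other genes of the list lay on both sides of it: Gclc had a mean of 6.60 TPM, Txnrd1 0.635, Srxn1 0.335 and Slc7a11 0.0200. Hmox1, at 2.06 ± 0.721 TPM, lay between Gclm and Nqo1.

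**Figure D5:**
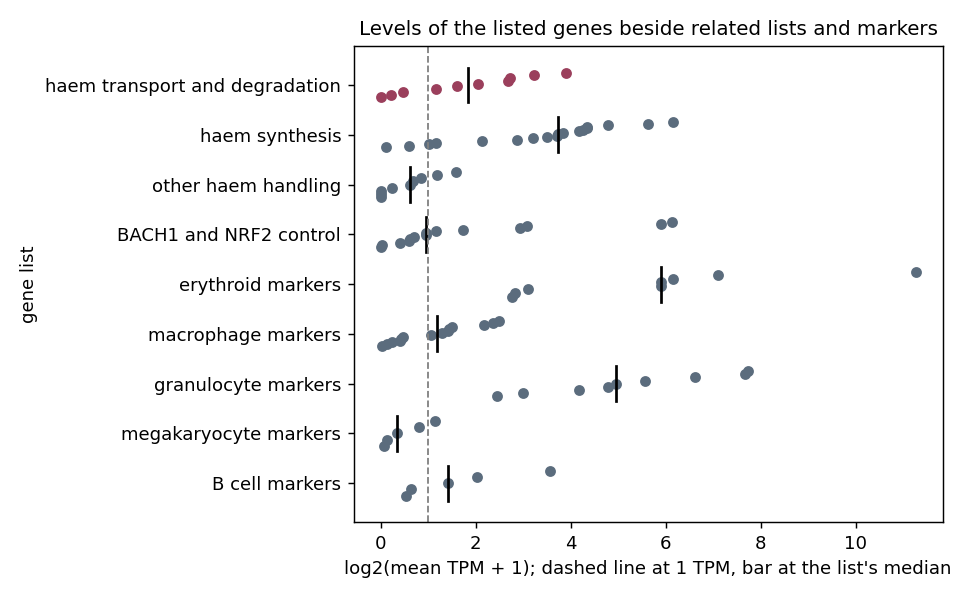
Level of each gene as log2(mean TPM + 1) for the 10 haem genes (red) and for related gene lists and cell type markers (grey), with a bar at each list's median and a dashed line at 1 TPM. Haem synthesis, with a median of 12.2 TPM, lies above the haem transport and degradation genes at 2.62 TPM, and other haem handling lies below at 0.530 TPM.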

How the data were processed

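Gene and transcript tables of both CFU-Ery libraries were used. Each library was quantified by itself from transcriptome alignments (mm10, GENCODE M4), per the text deposited with each library. For the aligner, the quantifier, their versions and strand use the answer is: not given in the sources used here. Per the file headers, the deposited expected counts are estimated reads, which can be fractional. The deposited TPM, as maximum likelihood and as posterior mean, sums over all rows of a table, spike-ins included, and the deposited FPKM is scaled per length and read total, per the file headers. Isoform percent, as deposited, gives a transcript's percent of its gene's TPM. The deposited posterior SD of a count was read as a score, and the deposited credibility bounds, also a score, were not used.

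The genes and lists were chosen with earlier results of these data known. All 10 genes are named, and of the other lists the defining markers, the 3 highest and the lowest gene by mean TPM and any gene that a ratio uses; a few genes that this rule takes are not reported here. Gene names and coordinates (1-based) come from GENCODE M21, whose assembly GRCm38 is mm10; promoter windows come from RefSeq on GRCm38.p6. Levels are mean ± SD over 2 libraries; counts have exact 95% Poisson intervals, ratios conditional binomial (Clopper-Pearson) intervals, and a gene at 0 has a floor of 3 counts. Ratios within a library use TPM with no pseudocount. The total expected count per library is given above and limits precision most for Flvcr1, with 41 and 44 counts. Alternatives were other TPM minimums and pseudocounts, posterior means, FPKM, expected counts, no filter, leaving out a library, edgeR TMM, DESeq2 and ERCC scaling; expected counts were rounded for edgeR and DESeq2. Scaling factors came from DESeq2 1.42.0 and edgeR 4.0.16 in R 4.3.3; the rest was computed in Python 3.11.15 with scipy 1.17.1, pandas 2.3.3 and numpy 2.4.6, and drawn in matplotlib 3.10.9.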

Additional observations from a re-analysis of the deposited data

How the results depend on the processing

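Leaving out a library aside, 85 alternatives to 31 results were computed. Of these, 53 stayed within the spread between the libraries (counts within 1.5-fold) and 32 moved. The sign of a ratio between genes turned in 0. Some of the 53 could not move: FPKM is proportional to TPM within a library, so its ratios are fixed, and Hebp1 has 1 listed transcript. Genes detected went from 6 to 9 on rescaled TPM and counted as staying, at the 1.5-fold limit. The order of the roles by mean share did turn. Without length scaling the exporters passed the reductases, though narrowly in replicate 2. On the longest coding transcript's length Abcb6 fell below the oxygenases on average and in replicate 2, but not in replicate 1. With posterior means, Flvcr1 stood at 0.200 TPM, Hmox2 at 0.485 TPM, Hmox2 over Hmox1 at −2.11 and Slc48a1 over Flvcr1 at 3.99 (log2), and the leading transcripts at 42.3% (Abcg2-202), 99.0% (Slc48a1-201), 91.5% (Hmox1-201), 70.2% (Hmox2-201) and 81.9% (Blvra-201) of gene TPM. With a pseudocount of 1, Hmox2 over Hmox1 was −1.13, Blvrb over Blvra 2.73 and Slc48a1 over Flvcr1 1.84; with 0.1 the first and last were −2.14 and 3.62. Without length scaling, Blvrb over Blvra was 3.16, Abcb6 over Abcg2 −1.31, and the exporters held 31.2%, the importers 14.9% and the reductases 24.7% of the members' counts. On the longest coding transcript's length, added after the data were seen, Flvcr1 stood at 0.0943 TPM, Abcg2 at 6.60 and Abcb6 at 2.20, Abcb6 over Abcg2 at −1.58, Slc48a1 over Flvcr1 at 5.08, the importers at 9.29% and Abcb6 at 6.47%. Genes over 2-fold apart numbered 1025 with a pseudocount of 0.1 and 136 without a filter, both on TPM. On expected counts they numbered 1801 with TMM, 1801 with DESeq2 size factors and 2842 with ERCC scaling. With ERCC scaling 2 haem genes (Hmox1 and Blvra) were among them. The cause of these moves was not tested. With 1 library left out, 6 or 7 genes reached 1 TPM, Blvra being the seventh, and each mean became the other library's value, which with 2 libraries says nothing of stability (Flvcr1-202 went from 33.8% to 0 or 67.7% of gene TPM). No paired analysis was possible because there is only 1 group. Depth limits Flvcr1 and Hmox2 most, and for Flvcr2 only an upper bound can be given.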
